A study of Oryza sativa with 27 samples.

Results

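The bottom part of the rice (Oryza sativa) ovary, the smaller basal piece that holds the embryo, was compared between 2 days and 1 day after pollination (DAP). The 6 arrays, 3 of the bottom part at 2 DAP and 3 at 1 DAP, were chosen by their labels from the 27 arrays of the series, and all 57258 rice probe sets of the array were considered. The series also holds the bottom part before pollination and at 3 and 4 DAP, and a top part, mainly endosperm per the labels, at the same stages. All plants grew in paddy fields at Mishima in Japan, and the labels name no cultivar, genotype or agent apart from the stage. Total RNA from frozen tissue was labelled with biotin and hybridised to 1 Affymetrix rice array per sample. The arrays of a group are labelled as biological replicates, but the plants or panicles behind them are not named, so p-values measure only the spread between these samples, which may be technical. Every value below is the deposited intensity of a probe set divided by the 75th percentile of its array, so that 1 equals that percentile.

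After fertilization the rice zygote starts to divide at the base of the embryo sac, while the endosperm nucleus multiplies freely before it forms cell walls. Around them the maternal nucellus is broken down, and the ovary wall turns green and delivers sugar and minerals to the seed through its vascular bundle. The basal piece of the ovary therefore mixes embryo, endosperm, nucellus, ovary wall and vascular tissue. In such bulk tissue, fewer cells of a type and less RNA per cell cannot be told apart.

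The 6 arrays correlated with each other at between 0.899 and 0.976 over the tested probe sets, and the pairs within a stage (0.903 to 0.975) did not stand closer than the pairs across stages. The deviation of an array from its group mean ran from 0.204 to 0.367 (root mean square, log2), highest in replicates 3 and 2 of 2 DAP. The 18S ribosomal RNA control was 0.403, 15.6 and 14.2 at 1 DAP and 0.28, 4.2 and 0.796 at 2 DAP, so it varied within each day and the ranges of the days overlapped. Replicate 3 of 2, 3 and 4 DAP had been described earlier as standing apart, and without those 3 arrays 338 probe sets were called between the days instead of 284. Of the marker lists, 4 of the 6 embryo markers were found, with a summed level of 24.4 to 28 at 1 DAP and 12.5 to 20.5 at 2 DAP, most of it OSH1 at 1 DAP. The lower sum was that of OSH1, which had stood at 16.7 to 23.6 before pollination, while ROC1 and OsPNH1 changed by 0.43 and 0.13 without being called. The 5 of 8 endosperm markers found summed to 4.48 to 5.68 and 4.83 to 5.34, most of it AGPS2, and the glutelin gene GluA1 lay between 0.0563 and 0.0963 on the 6 arrays. The 4 nucellus markers summed to 37.4 to 54.2 and 74.5 to 105, of which OsAsp1 was the one called, while OsMADS29, AP25 and OsVPE1 changed by 0.65, 0.44 and -0.22. The 3 green ovary wall markers summed to 7.41 to 19.2 and 37.8 to 42.2, most of it CAB2R. The 3 vascular and transfer markers summed to 12.5 to 23.1 and 41.1 to 51.7, nearly all of it OsSWEET11, while SUT1 and OsSWEET14 changed by -0.13 and 0.67 without being called. The 2 of 7 pollen markers found summed to 0.436 to 0.577 and 0.328 to 0.569, and the 4 markers of dividing cells to 29.7 to 38.6 and 13.1 to 30.9. The part of these tissue markers in the results below was not tested.

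Between 1 and 2 DAP a small share of the genes of the bottom part changed, in both directions. Of 29332 probe sets bright enough to be tested, 147 rose and 137 fell in limma (Benjamini-Hochberg adjusted p under 0.05, here written as called), which is 0.501% and 0.467% of those tested and 284 or 0.968% in all. All 147 that rose and 136 of the 137 that fell had arrays without overlap between the days. A lack of overlap therefore adds nothing to a call. Without adjustment 2196 probe sets, 7.49%, lay under 0.05. The probe sets that rose did so by a median log2 change of 1.31, or 2.49-fold, and 32 of them rose over 4-fold, while those that fell had a median of -1.28 and 13 fell over 4-fold. The median log2 change over all probe sets was -0.01. Fold changes are on the scale log2(value + 0.13), which understates the change of dim genes. Taking the brightest probe set for each gene, 86 of 15275 genes rose (0.563%) and 88 fell (0.576%), 1.14% in all, and no gene had probe sets called in opposite directions. Of the called probe sets 94 had no gene in the annotation used here, among them 14 of the 20 largest rises, so most of the steepest risers have no gene name here. The number called was 284 and came to 133 without replicate 2 of 1 DAP, 132 without replicate 3 of 1 DAP, 165 without replicate 1 of 2 DAP and 144 without replicate 3 of 2 DAP. The even split depended on the setting: with only probe sets of a mean above 1 it was 99 higher and 39 lower, with only the 6 arrays in the fit 107 and 46, without replicate 3 of 2, 3 and 4 DAP 234 and 104, and with only the 6 arrays and the replicate block 21 and 0.

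**Figure D1:**
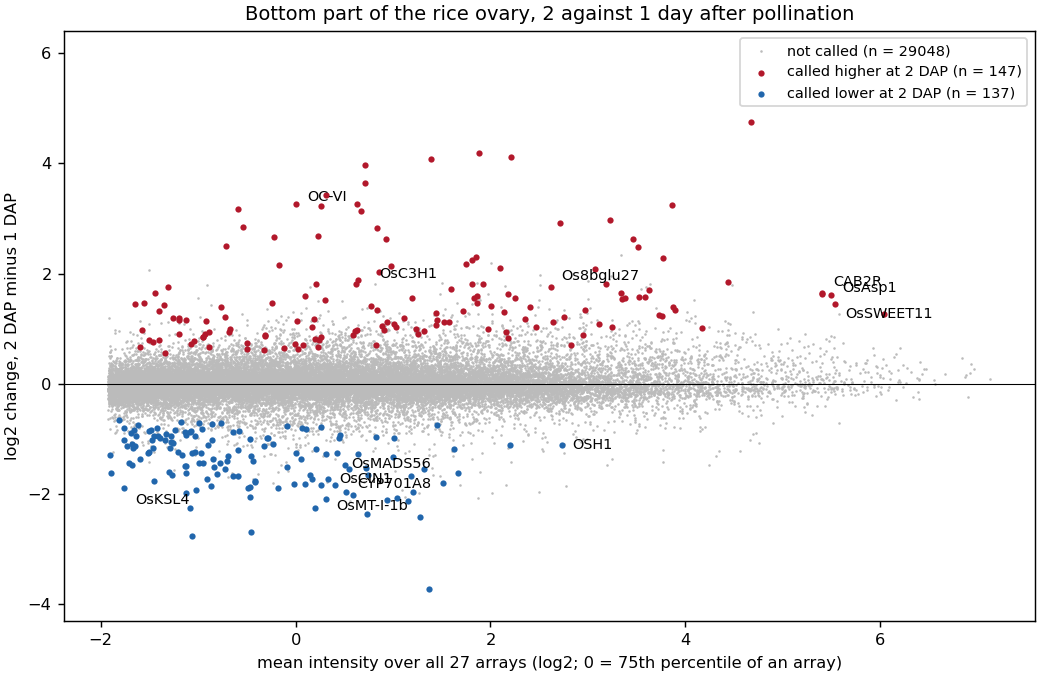
Change between the days against brightness: each point is a tested probe set, with its mean intensity over all 27 arrays on the horizontal axis (log2) and its log2 change from 1 to 2 DAP in the bottom part on the vertical axis. The 147 probe sets called higher (red) reach 4.75, the 137 called lower (blue) reach -3.72, and OsSWEET11, OsAsp1 and CAB2R, the 3 brightest genes named on the plot, rose.

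The steepest rise was that of LOC4339174, a gene known here by locus number only. It read 0.699, 0.457 and 0.185 at 1 DAP and 12.3, 13.7 and 17.2 at 2 DAP, a log2 change of 4.75 ± 0.38 (SE, 26.9-fold, adjusted p = 9.92e-07 in limma). It stood at 52.6 ± 4.47 (SD, n = 3) by 4 DAP against 0.184 ± 0.0359 before pollination, so it went from near the floor of the array to among its bright genes. LOC4324705, the other locus-number gene among the largest rises, went from 0.39, 0.368 and 0.298 to 4.62, 4.02 and 4.69 (log2 change 3.25 ± 0.41, adjusted p = 0.000131).

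Among genes with a name the largest rise was that of OC-VI (LOC4332021), an oryzacystatin of the family that inhibits cysteine proteases. It read 0.171, 0.101 and 0.149 at 1 DAP and 2.52, 2.12 and 2.72 at 2 DAP (log2 change 3.26 ± 0.39, 9.57-fold, adjusted p = 5.88e-05). All 3 arrays at 1 DAP lay at the level seen before pollination, 0.147 ± 0.03 (SD, n = 3), and all 3 at 2 DAP stood well above it. OsAsp1 (LOC4349962), an aspartic protease, rose by 1.61 ± 0.30 (adjusted p = 0.00684), from 29.1, 15.8 and 12 to 54.5, 59.1 and 49.1. The days did not overlap, replicate 1 was the highest array of 1 DAP, and without replicate 3 of 1 DAP the call was lost (log2 change 1.33, adjusted p = 0.0707). OsAsp1 belongs to the list of cell death proteases and cystatins, which OC-VI does not, since the symbol pattern left it out, and the other 5 genes of that list were not called. Among them the vacuolar processing enzyme OsVPE1 changed by -0.22 and the aspartic protease AP25 by 0.44, and the list had a median log2 change of -0.19.

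Some genes of the photosynthetic apparatus rose on the second day. Of the 6 genes in the photosynthesis list 2 rose, against 0.563% of all genes, none fell, 4 had higher arrays without overlap (6.46% of all probe sets did), and the median log2 change was 1.12 against -0.02 over all genes. CAB2R (LOC4324599), a chlorophyll a/b-binding protein of the light-harvesting antenna, read 5.83, 11.4 and 13.9 at 1 DAP and 28.9, 32 and 31.6 at 2 DAP (log2 change 1.65 ± 0.40, adjusted p = 0.048). OsrbcS (LOC4351966), a small subunit of the carbon-fixing enzyme Rubisco, went from 0.437, 0.481 and 0.513 to 1.48, 1.48 and 1.66 (1.46 ± 0.33, adjusted p = 0.0361). The 2 dimmer probe sets of OsrbcS changed by 0.00 and 0.47 and were not called, so its probe sets disagree. LHCP, also of the antenna, changed by 1.31 (adjusted p = 0.439) and PSAH, a subunit of photosystem I, by 0.94 (adjusted p = 0.073), without being called, and OsPSAG, another photosystem I subunit, by -0.21.

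RCABP69, OEE3 and sodCp, which are not in that list, rose as well, of which OEE3 lies outside the naming rule and was chosen after its values were seen. RCABP69 (LOC4343583), named as a chlorophyll a/b-binding protein, rose by 1.81 ± 0.35 (adjusted p = 0.0113), from 0.913, 1.46 and 2.05 to 5.18, 4.73 and 5.95. OEE3 (LOC4343515), an oxygen-evolving enhancer of photosystem II, rose by 1.22 (adjusted p = 0.0408), and sodCp (LOC4346329), a plastid copper/zinc superoxide dismutase, by 0.71 (adjusted p = 0.0189). All 3 had no overlap between the days. The calls of CAB2R and OsrbcS were each lost without any 1 of the 6 arrays (adjusted p up to 0.227 and 0.156), that of RCABP69 without replicate 1 of 1 DAP or replicate 3 of 2 DAP (0.0666 and 0.0663), and those of OEE3 and sodCp without any 1 of 5 arrays (up to 0.304 and 0.0886). Before pollination CAB2R had stood at 13.9 ± 1.36 and RCABP69 at 3.04 ± 0.438 (SD, n = 3 each), so all 3 arrays at 1 DAP of RCABP69 and 2 of 3 of CAB2R lay below that mean.

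**Figure D2:**
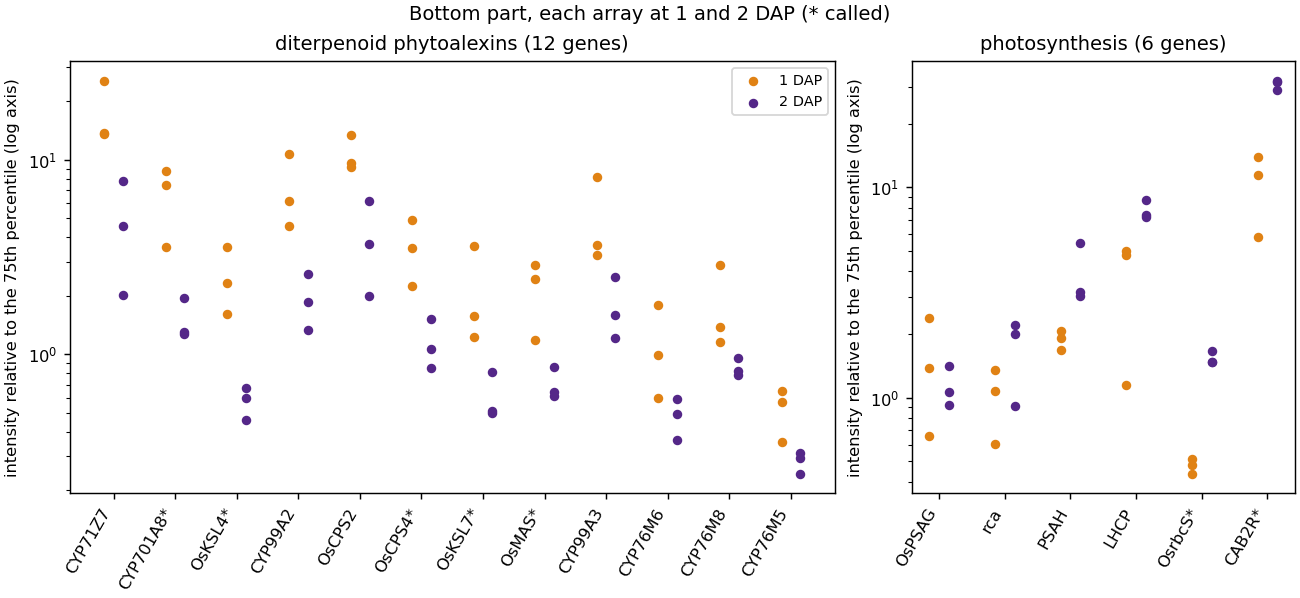
Intensity of each array at 1 DAP (orange) and 2 DAP (purple) for the 12 diterpenoid phytoalexin genes and the 6 photosynthesis genes, on a log axis relative to the 75th percentile of the array. In all 12 phytoalexin genes every array at 2 DAP lies below every array at 1 DAP, with 5 called (asterisks), and in 4 of the 6 photosynthesis genes every array at 2 DAP lies above, with 2 called.

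Genes that move and cleave sugar went both ways. OsSWEET11 (LOC4346153), a plasma membrane carrier that exports sucrose toward the rice caryopsis, rose 2.75-fold, from 16.3, 21.4 and 11 to 41.2, 39.3 and 50 (log2 change 1.46 ± 0.24, adjusted p = 0.00179). OsCIN1 (LOC4329561), a cell wall invertase that splits sucrose outside the cell, fell from 3.72, 4.63 and 5.12 to 1.27, 1.05 and 1.48 (-1.73 ± 0.24, adjusted p = 0.00036). The arrays of the 2 days did not overlap in either gene, which the naming rule required, and both calls held without each of the 6 arrays in turn. With only the 6 arrays in the fit the call of OsSWEET11 was lost in limma (adjusted p = 0.0974). With the replicate block added to that fit both calls were lost (0.259 for OsSWEET11 and 0.0913 for OsCIN1). The other 24 genes of the sucrose and hexose list were not called, and the list's median was -0.06. Of all genes 1.14% were called. OsSWEET4, a hexose carrier with values of 40.5 to 55 at 1 DAP, changed by -1.08 (adjusted p = 0.599), and the sucrose transporter OsSUT1 by -0.13. Starch synthesis genes had 0 of 7 called and a median of 0.12, and the one with the lowest p, the starch synthase SSI (LOC9269493), changed by 0.63 ± 0.33 (adjusted p = 0.78).

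The other named genes that rose include several enzymes and factors of diverse roles. Os8bglu27 (LOC4345995), a beta-glucosidase, rose by 1.76 ± 0.27 (adjusted p = 0.00113), from 3.77, 2.15 and 1.54 to 8.3, 9.15 and 7.22. OsC3H1 (LOC4327128) rose by 1.72 ± 0.26 (adjusted p = 0.00093), from 0.232, 0.232 and 0.144 to 0.94, 0.865 and 1.07, and went on to 5.74 ± 0.742 (SD, n = 3) at 4 DAP. The days did not overlap in either gene, which the rule that named them required. With only the 6 arrays in the fit the call of Os8bglu27 was lost in limma (adjusted p = 0.0792). Ribosomal protein genes as a list had a median of -0.07 with 1 of 21 called, where 1.14% of all genes were. The one called, annotated as rpl5 (LOC4331459), rose by 1.11 ± 0.15 (adjusted p = 0.000234), from 1.37, 1.02 and 1.11 to 2.73, 2.35 and 2.93. The gene annotated as RPL5, a different locus, changed by -0.03. Among genes outside the naming rule, taken because they were called, were RRF, a ribosome recycling factor (1.12, adjusted p = 0.0387), OsBLE3, a brassinosteroid-enhanced gene (0.94, 0.0037), OsICS, an isochorismate synthase (0.90, 0.0362), and KPHMT1, an enzyme of pantothenate synthesis (0.73, 0.0387). The calls of OsICS and KPHMT1 were lost without any 1 of the 6 arrays (adjusted p up to 0.165 and 0.279) and that of RRF without any 1 of 5 (up to 0.301).

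The list with the most genes that fell was the synthesis of diterpenoid phytoalexins, the antimicrobial momilactones, phytocassanes and oryzalexins of rice. Of the 12 genes in that list 5 fell, against 0.576% of all genes, and none rose. All 12 had a negative change, from -0.64 to -1.97 with a median of -1.5, and in all 12 every array at 2 DAP lay below every array at 1 DAP, which holds for 7.09% of all tested probe sets. Its members were taken by symbol with earlier results of these data known. OsMAS and OsKSL7 lie outside the naming rule and were chosen after their values were seen, as were the members given below that were not called, apart from CYP71Z7.

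The first steps of the pathway are cyclizations. OsCPS4 (LOC4335090), the syn-copalyl diphosphate synthase of the momilactone branch, read 3.53, 2.25 and 4.93 at 1 DAP and 1.06, 1.52 and 0.851 at 2 DAP (log2 change -1.51 ± 0.36, adjusted p = 0.0484). OsKSL4 (LOC4335094), which cyclizes its product further, fell from 2.34, 1.61 and 3.57 to 0.46, 0.595 and 0.669 (-1.85 ± 0.36, adjusted p = 0.0106). OsKSL7 (LOC4329724), the synthase of the phytocassane branch, changed by -1.5 ± 0.33 on the log2 scale (adjusted p = 0.029), from 1.23, 1.57 and 3.61 to 0.497, 0.816 and 0.513. OsCPS2 (LOC9266189), which makes the ent-copalyl diphosphate for that branch, stood at 9.66, 9.23 and 13.4 and then 3.69, 6.16 and 2, a change of -1.53 ± 0.61 that was not called (adjusted p = 0.446). Replicate 3 was the highest array of 1 DAP in each of these 4 genes.

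The later steps are oxidations. CYP701A8 (LOC4341343), a P450 related to kaurene oxidase, fell from 7.38, 3.58 and 8.72 to 1.3, 1.94 and 1.28 (-1.96 ± 0.45, adjusted p = 0.0376). OsMAS (LOC4335093), the momilactone A synthase, fell from 2.45, 1.18 and 2.87 to 0.611, 0.858 and 0.637 (-1.39 ± 0.28, adjusted p = 0.0123). The brightest member at 1 DAP, the P450 CYP71Z7 (LOC4329726), read 13.5, 13.7 and 25.5 and then 4.56, 7.81 and 2.02, a change of -1.97 ± 0.73 that was not called (adjusted p = 0.37). The P450 genes CYP99A2 and CYP99A3 changed by -1.77 and -1.37, and CYP76M5, CYP76M6 and CYP76M8 by -0.64, -0.94 and -0.88, none of them called. In the RefSeq gene order (assembly ASM3414082v1) 6 of the 12 genes, CYP76M5, CYP76M8, OsKSL7, CYP71Z7, OsCPS2 and CYP76M6, follow each other on one chromosome with 0 to 3 genes between neighbours, and OsCPS4, CYP99A3, OsMAS, OsKSL4 and CYP99A2 do so on another with 0 to 2 genes between. CYP701A8 lies on neither.

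The calls in this pathway rested on few arrays. The number of members called was 0 without replicate 3 of 1 DAP and 0 without replicate 1 of 2 DAP, 1 without replicate 3 of 2 DAP, 3 without replicate 1 of 1 DAP or replicate 2 of 2 DAP, and 4 without replicate 2 of 1 DAP, while the median lay between -1.7 and -1.2. All 5 calls were also lost in limma with only the 6 arrays in the fit (adjusted p from 0.0514 to 0.218). The same held with only the 15 bottom arrays (0.0969 to 0.252). All 12 had an unadjusted p under 0.05. At 2 DAP the levels were still above those before pollination in every array for the genes of this pathway given by array: OsCPS4 had stood at 0.124 ± 0.0214 and CYP701A8 at 0.124 ± 0.0163 (SD, n = 3 each). Of 11 defence proteins 1 fell (0.576% of all genes did), 7 had lower arrays without overlap (7.09% of all probe sets did), and the median was -0.81. The one that fell was the chitinase OsChia4a (LOC4336265), from 1.19, 1.15 and 1.27 to 0.677, 0.357 and 0.334 (-1.23 ± 0.20, adjusted p = 0.00187). PBZ1 (LOC4352491), a pathogenesis-related protein, read 92.5, 89.9 and 91.7 and then 78, 89.3 and 75.5, a change of -0.18 ± 0.43, and the chitinase OsChia1d changed by -1.42 (adjusted p = 0.577). OsTHT2 (LOC4348504), a hydroxycinnamoyl transferase for phenolic amides, fell by 1.62 ± 0.27 on the log2 scale (adjusted p = 0.00214).

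Some regulators of meristems and flowering fell too. OSH1 (LOC4333973), the KNOX homeobox gene of the shoot meristem that marks the early rice embryo, read 18.5, 21.3 and 20.2 at 1 DAP and 11, 12.2 and 5.74 at 2 DAP (log2 change -1.11 ± 0.25, adjusted p = 0.0329). Its other probe set gave -1.11 as well (adjusted p = 0.0164). All 3 arrays at 2 DAP were lower, replicate 3 the lowest, and without that replicate the change was -0.78 (adjusted p = 0.259). The call was lost without any 1 of 5 of the 6 arrays. Of the 22 genes of the KNOX, WOX and embryo patterning list 1 was called, where 1.14% of all genes were, and the embryo marker OsPNH1 changed by 0.13.

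Of 23 MADS-box genes 2 fell and none rose, with a median of -0.29, and 12 had lower arrays without overlap, against 0.576% of all genes called lower and 7.09% of all probe sets with lower arrays without overlap. OsMADS56 (LOC4349237) and OsMADS50 (LOC4331445), relatives of the flowering gene SOC1 of Arabidopsis, were the ones called. OsMADS56 fell from 2.47, 2.38 and 2.54 to 0.82, 0.838 and 1.26 (-1.26 ± 0.22, adjusted p = 0.00321). OsMADS50 fell from 0.896, 0.748 and 1.02 to 0.446, 0.418 and 0.325 (-0.95 ± 0.21, adjusted p = 0.0259), a call that was lost without any 1 of the 6 arrays (adjusted p up to 0.169). OsMADS29, needed for breakdown of the nucellus in rice, changed by 0.65 (adjusted p = 0.728) with higher arrays at 2 DAP throughout. Outside the list and the naming rule, and chosen after its values were seen, OsMFT1 (LOC4341107), of the family of the flowering signal FT, fell by 1.36 ± 0.22 on the log2 scale (adjusted p = 0.00171), from 1.12, 1.16 and 1.61 to 0.544, 0.391 and 0.345. OsHox33 (LOC4352777), a class III HD-Zip factor, fell by 0.98 ± 0.18 (adjusted p = 0.00762), and lost the call without replicate 3 of 1 DAP (0.0767) or of 2 DAP (0.0587). It was the one call among 21 HD-Zip genes, whose median was -0.10.

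**Figure D3:**
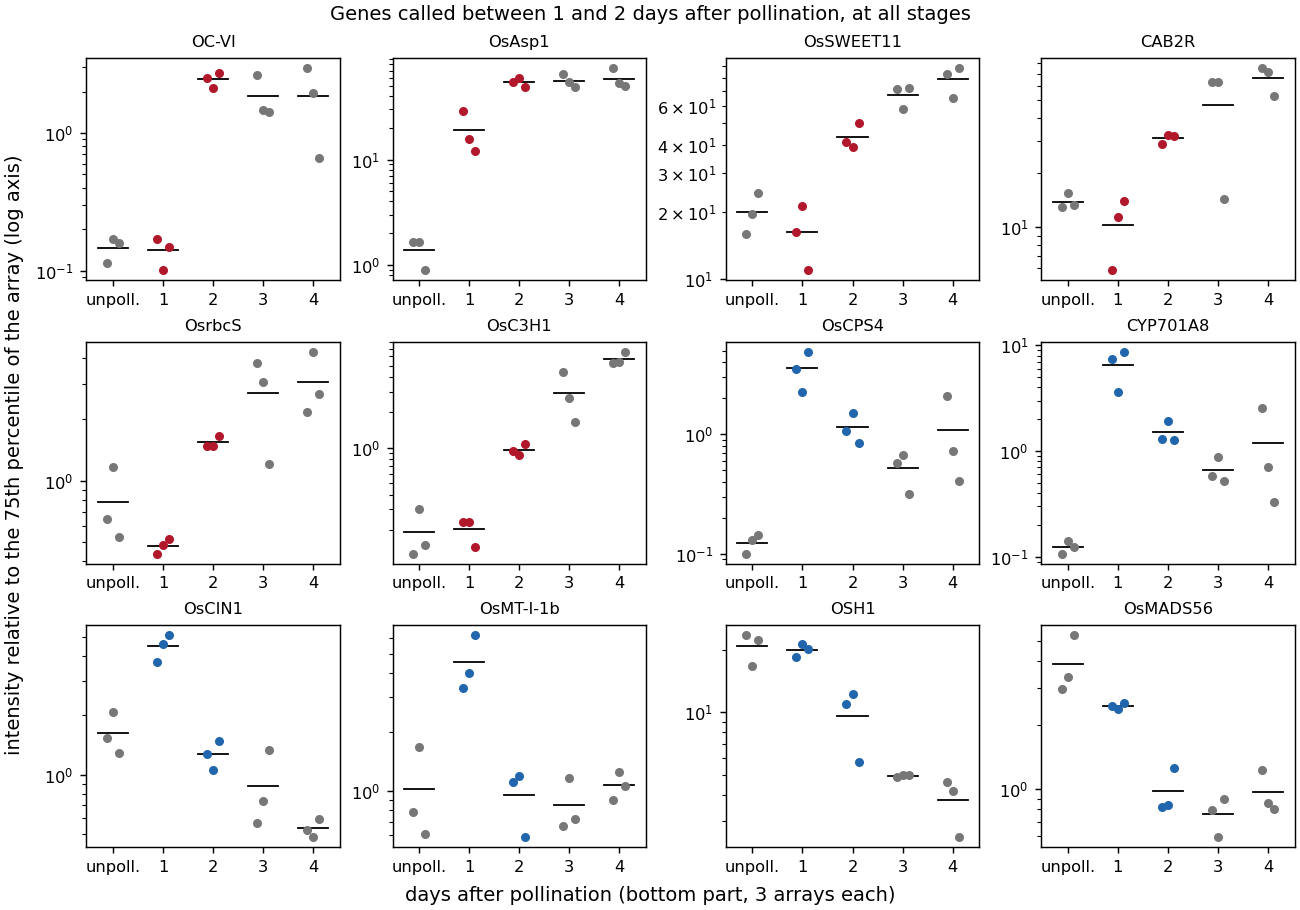
Intensity of 12 called genes on each array of the bottom part at 5 stages (log axis, points are arrays, bars are means, 3 arrays each). The stages compared, 1 and 2 DAP, are in colour, red for genes called higher and blue for genes called lower. OC-VI stood at 0.147 before pollination and 0.14 at 1 DAP and then at 2.45, while OsCPS4 and CYP701A8 were highest at 1 DAP.

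The hormone lists had 1 or 0 genes called each, where 1.14% of all genes were called in either direction. OsCPS1 (LOC4329013), which makes the ent-copalyl diphosphate used for gibberellin, fell from 1.56, 2.47 and 2.13 to 0.643, 0.352 and 0.752 (-1.64 ± 0.30, adjusted p = 0.00564), and the other 9 gibberellin genes were not called. Its call was lost without replicate 2 of 1 DAP (adjusted p = 0.051). OsOPR5 (LOC4340485), of the oxophytodienoate reductase family that includes an enzyme of jasmonate synthesis, fell by 1.48 ± 0.32 (adjusted p = 0.0213) from 8.9, 8.67 and 3.44 to 2.6, 1.63 and 2.6. It was the only call among 44 jasmonate and ethylene genes, and was lost without any 1 of 4 arrays (up to 0.166). OsCCD8a (LOC4327933), outside the rule and chosen after its values were seen, of the carotenoid cleavage family that makes strigolactones, fell by 1.28 ± 0.28 (adjusted p = 0.024) from 4.76, 5.46 and 5.29 to 2.34, 1.46 and 2.52, with a loss of the call without any 1 of 5 arrays (up to 0.146). Auxin had 0 of 53 and cytokinin 0 of 26 genes called. IAA19 (LOC4339588), an auxin response repressor and the auxin gene with the lowest p, changed by -0.86 (adjusted p = 0.0754), and LOGL3 (LOC4331344), a cytokinin-activating enzyme by its name, by -1.76 (adjusted p = 0.199).

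Other named genes that fell have diverse roles. OsMT-I-1b (LOC4332487), a metallothionein that binds metals, had the largest named fall, from 3.36, 3.97 and 6.22 to 1.11, 1.19 and 0.586 (-2.09 ± 0.33, adjusted p = 0.00148), while the other 7 genes of its list were not called. OsZIP8 (LOC4342782), of the ZIP zinc transporters, fell from 1.16, 2.38 and 2.95 to 0.545, 0.682 and 0.937 (-1.36 ± 0.25, adjusted p = 0.00539), a call lost without replicate 3 of 1 DAP (0.058). It was the one call among 55 mineral and nitrogen transport genes (median -0.06), as sodCp was among 39 peroxidase and redox genes (median 0.04). Over all genes 1.14% were called. OsCASPL1D1 (LOC4343098), related to the proteins that form Casparian strips, fell from 2.73, 4.11 and 2.58 to 0.794, 0.633 and 1.03 (-1.78 ± 0.24, adjusted p = 0.000238). The days did not overlap in any of these 3 genes.

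OsABCG45, OsABCG32 and OsASMT3 lie outside the rule and were chosen after their values were seen. The transporter genes OsABCG45 and OsABCG32 fell by 1.26 and 0.66 on the log2 scale (adjusted p = 0.000376 and 0.0397), and the call of OsABCG32 was lost without any 1 of 5 arrays (up to 0.2). OsASMT3 (LOC4347993), of the methyltransferases of melatonin synthesis, changed by -1.90 ± 0.45 (adjusted p = 0.046), but its arrays overlapped: 0.637, 1.98 and 5.79 at 1 DAP and 0.495, 0.848 and 0.174 at 2 DAP. Without replicate 3 of 1 DAP its change was -1.16 (adjusted p = 0.325). The largest falls among locus-number genes were those of LOC4336908, from 3.01, 2.94 and 2.57 to 0.51, 0.383 and 0.128 (-2.75 ± 0.28, adjusted p = 8.76e-06), and LOC4338337, from 2.52, 3.11 and 3.7 to 0.518, 0.407 and 0.217 (-2.70 ± 0.43, adjusted p = 0.00148).

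No gene of the cell division lists was called, where 1.14% of all genes were, although most genes of these lists were lower. DNA replication had 0 of 27 genes called, mitosis 0 of 8 and core histones 0 of 5, and unadjusted p-values lay under 0.05 for 7, 1 and 0 of them in limma, against 7.49% of all probe sets. Of the replication genes 24 were below 0 with a median of -0.40, as were 7 of the mitosis genes (-0.41) and all 5 histones (-0.36), where 47% of all genes were above 0. CYCB1-1 (LOC4327547), a mitotic cyclin, read 10.7, 8.23 and 9.66 and then 9.05, 8.08 and 4.51 (-0.45 ± 0.34). CycB2;2 (LOC4342121), another, read 7.19, 6.09 and 6.11 and then 5.82, 5.77 and 2.58 (-0.53 ± 0.42), and H2B.11, a histone, changed by -0.22. In both cyclins replicate 3 of 2 DAP was by far the lowest array, and without it the list medians were -0.12, -0.14 and -0.17. OsRPA70b (LOC4332052), a subunit of the protein that coats single-stranded DNA, had the lowest p of the replication genes (-1.12 ± 0.33, adjusted p = 0.154).

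Calls were rare over all genes, at 1.14%. Further lists had no member called, among them abscisic acid and dehydration (0 of 78, median 0.03), heat shock proteins (0 of 42, 0.09), cell wall loosening (0 of 31, 0.01), cellulose and callose synthesis (0 of 24, -0.08), aquaporins (0 of 19, 0.12), Polycomb and DNA methylation (0 of 18, -0.14) and phenylpropanoid and lignin (0 of 17, -0.05). So were G1 cyclins and CDK inhibitors (0 of 17, -0.04), NAC and MYB factors (0 of 12, 0.24), WRKY factors (0 of 6, 0.01), endosperm regulators and storage proteins (0 of 6, 0.05) and lipid transfer proteins (0 of 5, 0.02). The expansin OsEXPA1 (LOC4335222), at 0.252 to 0.406 on 1 DAP, changed by 0.67 (adjusted p = 1), the expansin OsEXPB9 by -0.40, and OsRAA1, a gene first described in roots, by -1.3 (adjusted p = 0.566).

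**Figure D4:**
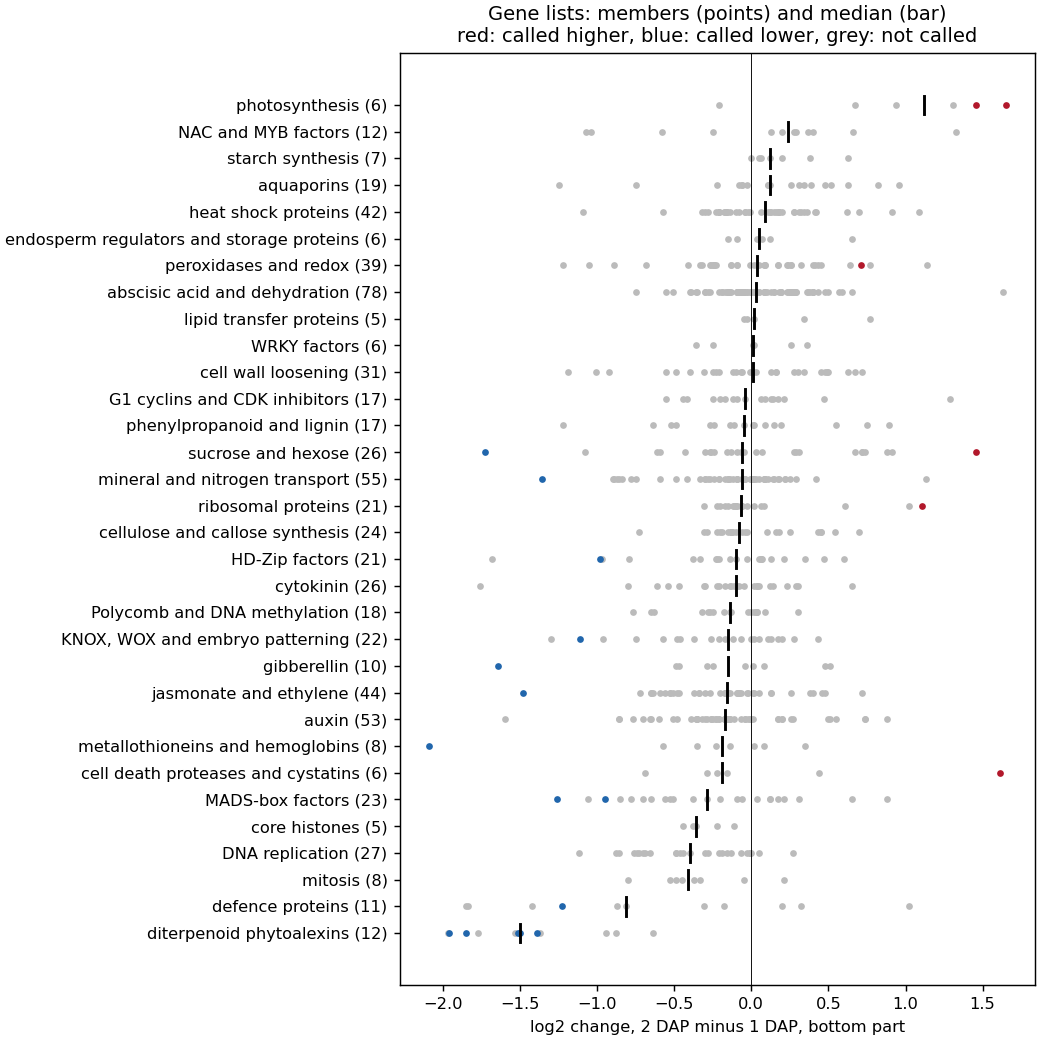
Log2 change from 1 to 2 DAP of the members of each gene list with at least 5 tested genes (points, with the number of genes in brackets), red where called higher, blue where called lower and grey where not called, with the list median as a bar. Photosynthesis has the highest median, 1.12, and diterpenoid phytoalexins the lowest, -1.5.

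The same step was measured in the top part of the ovary on 4 other arrays, 2 per day. There 191 probe sets rose (0.651% of those tested) and 78 fell (0.266%), 269 or 0.917% in all. Of the 147 probe sets that rose in the bottom part 75 were also called higher in the top part, 51% of them and 39.3% of the top risers, and 144 had a change above 0 there, as did 49% of all probe sets. Of the 137 that fell in the bottom part 28 were called lower in the top part, 20.4% of them and 35.9% of the top fallers, and 115 lay below 0, as did 51% of all probe sets. None was called in the opposite direction. Both parts were tested in the same fit with a shared variance per probe set, so the calls in the parts are not independent. Without replicate 3 of 2, 3 and 4 DAP of the bottom part, the top part had 611 called instead of 269. Fewer were called in the top part without any 1 of its 4 arrays, but each such fit leaves 1 array on a day.

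Named genes were found in both classes. In the top part CAB2R changed by 2.74 (adjusted p = 0.00638), RCABP69 by 2.21 (0.0134), OsC3H1 by 2.13 (0.00142), OsSWEET11 by 1.43 (0.0163) and LOC4339174 by 4.85 (2.6e-05), all called. Of the photosynthesis list 2 of 6 genes were called higher there, against 0.838% of all genes, and of the phytoalexin list 5 of 12 were called lower, against 0.38%, with a median of -1.95 for the latter. OC-VI changed by 0.91 (adjusted p = 0.746), OsAsp1 by 0.86 (0.504), OsMT-I-1b by -0.21 (1), OsMADS56 by 0.02 (1) and OsMFT1 by -0.05 (1) in the top part. A difference of the step between the parts was called for only 9 probe sets, 0.0307% of those tested, and for none of the genes of this paragraph, so that a call in one part alone does not show a difference for them.

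**Figure D5:**
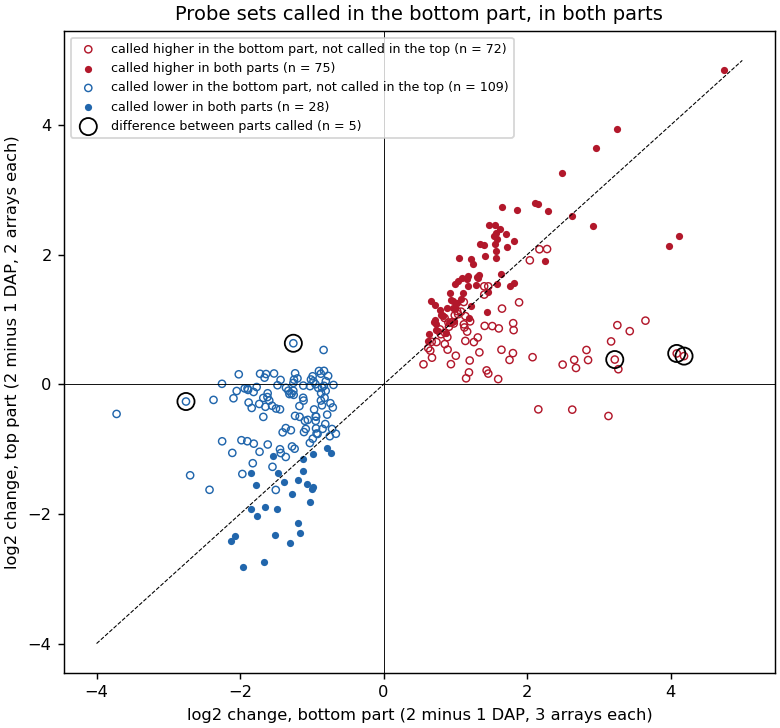
Log2 change from 1 to 2 DAP in the bottom part (horizontal) and the top part (vertical) for the 284 probe sets called in the bottom part, red where called higher and blue where called lower. Filled points, 75 and 28, were also called in the top part, and black rings mark the 5 whose difference between the parts was called.

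Of the 9 probe sets with a called difference, OsABCG45 (LOC4346210), a transporter of the ABCG family, fell in the bottom part, from 0.886, 1.12 and 1.11 to 0.401, 0.426 and 0.26, while in the top part it read 0.215 and 0.23 and then 0.457 and 0.38 (difference of the log2 changes -1.89 ± 0.28, adjusted p = 0.0256). OsMT-I-2b, a metallothionein, was bright in the bottom part on both days, 73.5, 68.2 and 97.6 and then 62.5, 75.2 and 31.7, and went in the top part from 1.05 and 1.07 to 15.4 and 10.3 (difference -3.98 ± 0.63, adjusted p = 0.0278). In 7 of the 10 fits that left out 1 of these arrays no difference was called in limma, with 425 to 783 probe sets at an unadjusted p under 0.05, against 699 (2.38%) with all arrays. Those arrays were replicates 2 and 3 of 1 DAP and replicate 3 of 2 DAP in the bottom part and all 4 in the top part, and without replicate 1 of 1 DAP in the bottom part 1 was called.

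The levels of the called probe sets at the other stages are a description, since their order between 1 and 2 DAP was fixed by how they were chosen. The median level of the 147 probe sets that rose was 0.417 before pollination, 0.502 at 1 DAP, 2.18 at 2 DAP, 2.67 at 3 DAP and 2.74 at 4 DAP. The median of the 137 that fell was 0.477 before pollination, 1.83 at 1 DAP, 0.607 at 2 DAP, 0.344 at 3 DAP and 0.401 at 4 DAP. The comparison of 4 DAP with the unpollinated bottom part had 12% of all probe sets higher and 8.34% lower. Its group means share no array with those of the step, but both came from the same fit. They therefore share the variance of each probe set. The filter on the mean over all arrays also lets in dim probe sets that are bright only at later stages. The shares that follow are thus no independent check of the step. In the comparison with the unpollinated part 131 of the 147, or 89.1%, were called higher and none lower. Of the 137 that fell on the second day 50 were called lower (36.5%), 23 higher (16.8%) and 64 in neither direction.

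Genes of the falling group took different courses over these stages. The phytoalexin list had 9 of 12 genes called higher at 4 DAP than before pollination (15.4% of all genes were), with a median of 1.53. Arrays of 4 DAP spread widely in CYP701A8 (2.53, 0.71 and 0.329) and OsCPS4 (2.1, 0.729 and 0.405), with replicate 1 the highest. OsCASPL1D1 was at 0.335 ± 0.113 before pollination, 3.14 ± 0.845 at 1 DAP and 0.328 ± 0.062 at 4 DAP (SD, n = 3 each), which is a peak on the first day with a return. OSH1 stood at 20.9 ± 3.69 before pollination, 20 ± 1.41 at 1 DAP, 9.65 ± 3.44 at 2 DAP, 4.94 ± 0.0629 at 3 DAP and 3.76 ± 1.12 at 4 DAP, lower at each later stage from the second day. OsMFT1 was already lower on the first day than before pollination, at 1.3 ± 0.27 against 5.21 ± 0.981, and stood at 0.427 ± 0.104 on the second.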

How the data were processed

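The authors deposited 1 linear intensity per probe set and array, with GCOS 1.3 named by the labels per the submitters' processing notes. For the probe summary and the background handling, no method was given in the sources used here. The values show that every array had been scaled to its 75th percentile. The 27 arrays entered 1 fit of 10 group means on log2(value + 0.13) in R 4.3.3 with limma 3.58.1 (lmFit, eBayes with an intensity trend, 17 residual degrees of freedom, two-sided, Benjamini-Hochberg adjustment). Of 57258 rice probe sets, the 29332 whose mean over the arrays passed 0.264 (the median value) were tested, and 123 control probe sets were left out. A probe set bright in only 1 group, such as 1 DAP, could pass this filter through that group. The fit was tested on simulated data with independent noise and no array or replicate effects, so that test does not cover such effects.

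Probe sets were named from GEO's platform annotation through a RefSeq gene table: 22436 had 1 gene, 95 several and 34727 none. The brightest probe set stood for a gene, and related transcripts may share a probe set. The comparison and the 34 lists, which are patterns on symbols and synonyms with 17 name matches left out by hand, were chosen with earlier results of these data known. Genes were named by rule: the 8 largest named rises and falls without overlap, the top 2 called members of each list or else the member with the lowest p, the 2 largest rises and falls among locus-number genes, and 10 genes named in an earlier comparison. The 12 other called genes with a name were added after their values were seen, as were other list members given by value. The number of arrays limits the precision. Figures used Python 3.11.15 with matplotlib 3.10.9.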

Additional observations from a re-analysis of the deposited data

Results flagged for a closer look

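The change from 1 to 2 DAP differed between the bottom and the top part, by a test of the difference itself in limma, for 9 probe sets (adjusted p between 0.0256 and 0.0405). The difference of the log2 changes, bottom minus top, was 3.75, 3.61 and 2.84 for 3 probe sets that have no gene in the annotation used here and rose in the bottom part. For LOC4349585 it was 1.88, with a fall in the top part. It was -1.89 for OsABCG45 and -2.49 for LOC4336908, which fell in the bottom part. For OsMT-I-2b it was -3.35 and -3.98 on its 2 probe sets, and for a probe set with no gene assigned here -3.51, all with a rise in the top part.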

How the results depend on the processing

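No named gene changed direction under any alternative. Of the 41 called genes named, 2 (OC-VI and LOC4324705) were called under all alternatives and 18 without each of the 6 arrays in turn. Of the 28 named genes not called, 15 were called under some alternative. Most of these were called only with array weights, whose estimate did not converge. Only IAA19, OsMYB45, OsCel9A, Os4CL3 and OsChia1d were called under another setting. Among the settings that kept the counts within 1.5 times the 284, 147 and 137 probe sets called, higher and lower were pseudocounts of 0.05 and 0.5, no filter, quantile normalization, no intensity trend, the 18S covariate, the replicate block over all arrays and the fit without replicate 1 of 1 DAP. With only probe sets of a mean above 1, 14964 were tested instead of 29332. Of these 138 were called and 39 lower, with 5 called for the difference between parts and 141 in the top part. With only the 6 arrays in the fit 153 were called and 46 lower. Among the calls lost there in limma were those of OsAsp1 (adjusted p = 0.126), OsChia4a (0.092), OSH1 (0.251), OsHox33 (0.197) and OsZIP8 (0.212). So were those of OsCPS1 (0.0666), rpl5 (0.0522) and OsBLE3 (0.061). With only the 15 bottom arrays 120 were called, 67 higher and 53 lower. Without replicate 3 of 2, 3 and 4 DAP, described earlier as standing apart, 234 rose, the difference had 26 and the top part 611. Array weights, whose estimate stopped before convergence with a weight of 74.6 for 1 array of 3 DAP, gave 1225 called, 651 higher and 574 lower, 53 for the difference and 1044 in the top part. Leaving out 1 array gave 132 to 235 called, 69 to 109 higher and 55 to 126 lower, 0 to 7 for the difference and 38 to 70 in the top part. The causes of these moves were not tested. The labels do not say whether equal replicate numbers pair the samples. Deviations of same-numbered arrays correlated at 0.45, 0.21 and -0.40, which cannot decide it with 3 arrays per day. With the replicate block 366 were called over all arrays, and with only the 6 arrays 21, all higher, with 0 lower in limma at 1035 unadjusted p-values under 0.05.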
